A study of Ovis aries with 30 samples.

Results

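DNAH1, DNASE1, SLC14A2 and GLYAT are 4 of the 28524 genes in the count table. They were chosen by their large change from the control lambs in thyroid tissue, in the counts reported here, so their thyroid differences from the controls are a description and not a finding. RNA was sequenced from peri-renal brown adipose tissue (BAT) and thyroid tissue of 15 newborn Romney lambs. The cold group of 6 lambs was kept for 2 days at 4 °C, and the ambient-temperature (AT) group of 6 lambs was kept for 2 days at 20–22 °C. The 3 control lambs were sampled at the start, within the first day after birth, and received neither treatment. Any difference from the controls therefore joins 2 days of age with the treatment, and these cannot be told apart, whereas cold against AT compares lambs of the same age. Each library holds 1 tissue of 1 lamb, and the cold and AT lambs together are called treated lambs.

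The genes belong to pathways that have little in common. DNAH1 encodes a dynein heavy chain of the inner arm, a motor that bends motile cilia and sperm tails by sliding their microtubules. DNASE1 encodes a secreted endonuclease that cuts DNA outside cells. SLC14A2 encodes the UT-A urea transporters, known from the collecting duct and thin limbs of the kidney, where they let urea pass down its gradient. GLYAT encodes a mitochondrial enzyme of liver and kidney that joins acyl-CoA to glycine, a step by which benzoate and short acyl groups leave the body. None of the 4 is a textbook product of the thyroid follicle, whose cells make thyroglobulin.

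On the genome build Oar_rambouillet_v1.0, DNAH1 lies on the minus strand at chr19:50452394-50531386, with 77 exon blocks and 13118 exon bases. DNASE1 lies on the plus strand at chr24:3047366-3053030, with 9 exon blocks and 3922 exon bases. SLC14A2 lies on the plus strand at chr23:50654276-50868920, with 21 exon blocks and 4876 exon bases. GLYAT lies on the minus strand at chr15:88502436-88516052, with 6 exon blocks and 1308 exon bases. The deposited counts are reads over these exons. TRAP1, a mitochondrial chaperone gene, overlaps DNASE1 and shares 54 exon bases with it, so reads in that stretch cannot be assigned with certainty.

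A thyroid library held between 25062784 and 30124871 counts and a BAT library between 31556500 and 37025998. Counts were divided by a size factor from ACTB, RPL19 and HUWE1, the study's reference genes, and are given as normalized counts. The study left 1 control out in both tissues, stating that its counts were outlying overall against the other samples. That lamb is called Control 2 here, and fitted values rest on Control 1 and Control 3 unless other controls are named. The lamb that the study itself labels Control 2 is Control 3 here. Both remaining controls stand apart in thyroid tissue. Control 3 had the highest value of the 15 thyroid libraries for 33.5% of the 16122 genes tested, against 3.81% for Control 1 and 18.1% for Control 2. Control 1 had a summed level of 380505 normalized counts over skeletal muscle markers, as had AT 3 with 4131895, while the other 13 thyroid libraries lay between 430 and 5450. Each control is therefore shown on its own. In whole tissue, fewer cells of a type and less RNA per cell cannot be told apart.

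DNAH1 was lower in every treated lamb than in any control. Its thyroid level was 590.7 normalized counts in Control 1, 1094 in Control 2 and 5310 in Control 3. In the 6 cold lambs it was 13.6 at the lowest, 60.6 at the median and 144 at the highest. In the 6 AT lambs the lowest, median and highest values were 9.75, 131 and 166. The groups of treated lambs overlapped each other and did not overlap the controls. Over all 12 treated lambs the mean was 98.8 ± 55.8 (SD), so Control 1 stood 5.98-fold, Control 2 11.1-fold and Control 3 53.7-fold above it. The direction was shared by the 3 controls, but the size was not, since the highest control was 8.99-fold above the lowest.

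DNASE1 was the most abundant of the 4 genes, and its difference came mainly from 1 library. Control 3 held 71420 normalized counts (53990 reads), Control 1 held 5232 and Control 2 held 1621. The cold lambs ranged from 551 to 2553 with a median of 1680, and the AT lambs from 603 to 3115 with a median of 1425. Control 1 and Control 3 lay above all 12 treated lambs, whereas Control 2 lay inside their range, with 5 treated lambs below it and 7 above. Control 2 was 1.01-fold the treated mean of 1606 ± 926 (SD), against 3.26-fold for Control 1 and 44.5-fold for Control 3. The 12 treated lambs spanned a 5.65-fold range, the narrowest of the 4 genes, and the 3 controls a 44.1-fold range.

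SLC14A2 split the controls in another way. It had 1831 normalized counts in Control 1 and 1306 in Control 3, but 58.5 (37 reads) in Control 2. The cold lambs had 7.07 at the lowest, 65.8 at the median and 197 at the highest, and the AT lambs had 11.1, 54.2 and 116. All 12 treated lambs lay below Control 1 and Control 3, while 6 lay below and 6 above Control 2. The treated mean was 68.0 ± 53.2 (SD), which Control 1 exceeded 26.9-fold and Control 3 19.2-fold, and Control 2 was 0.860 of it. The treated lambs themselves spanned a 27.9-fold range, the widest of the 4 genes.

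GLYAT went the other way and was close to 0 in all 3 controls. Control 1 held 1 read (1.09 normalized counts), Control 2 held 3 reads (4.74) and Control 3 none. A count of 0 in Control 3 allows up to 3 reads, or 3.97 normalized counts there, by counting error alone. The cold lambs had 8.03 at the lowest, 33.8 at the median and 115 at the highest. In the AT lambs the lowest, median and highest values were 14.2, 27.1 and 88.2. All 12 treated lambs were above all 3 controls, and the cold and AT lambs overlapped over most of their range. Control 1 and Control 3 together held 1 read. The mean of the cold lambs was 79.9-fold above these 2 controls, with a 95% interval of counting error from 14.3 to 3157. That of the AT lambs was 66.6-fold above them, with an interval from 11.96 to 2632. Above Control 2 the means were only 10.05-fold (cold) and 8.38-fold (AT) higher, under the lower limits of both intervals. The intervals hold for Control 1 and Control 3 only and leave out the spread between controls.

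**Figure D1:**
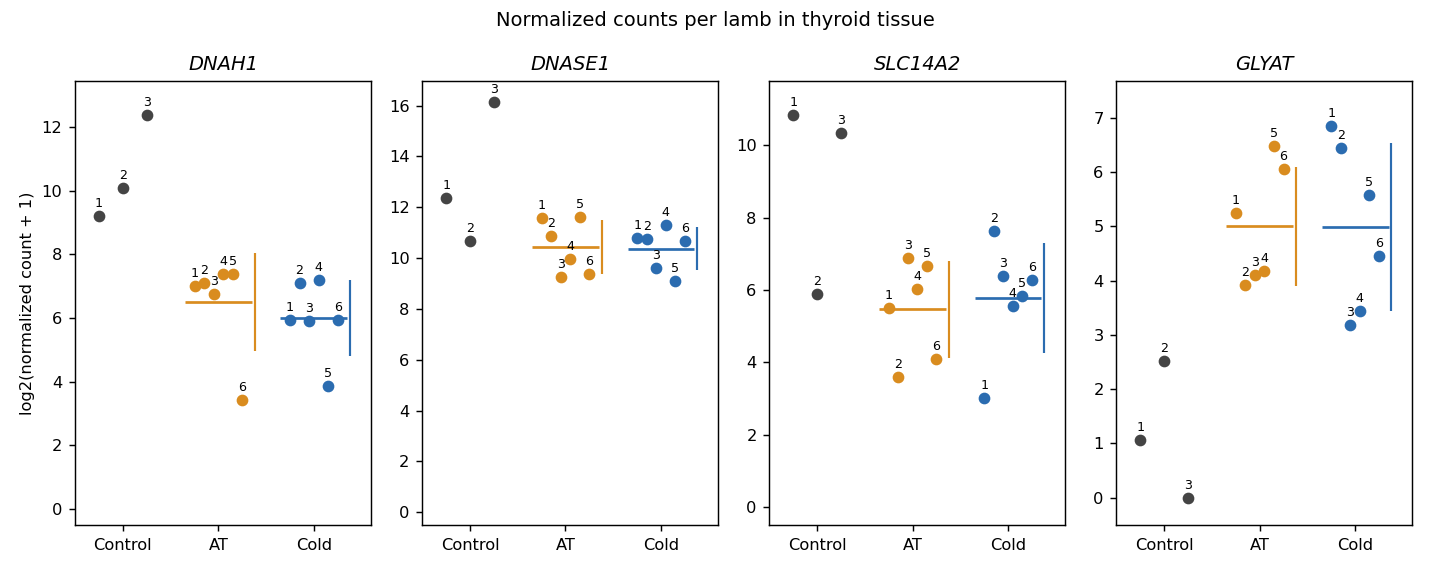
Thyroid level of each gene per lamb as log2(normalized count + 1), with the control, AT and cold lambs on the x axis and the replicate number above each point. Horizontal lines are the means of the 6 lambs and vertical bars the SD on this log2 scale. The 3 controls lie above all 12 treated lambs for DNAH1 and below them for GLYAT, whereas Control 2 lies among the treated lambs for DNASE1 and SLC14A2.

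Per kilobase of exon, the order of the genes in the treated thyroid differed from that of the counts. The treated means were 409 normalized counts per kb for DNASE1, 33.4 for GLYAT, 13.95 for SLC14A2 and 7.53 for DNAH1. The short GLYAT transcript thus stood above the long DNAH1 transcript per base. The ranges of GLYAT, SLC14A2 and DNAH1 over single lambs were each more than 14-fold wide, so the order of these 3 genes is one of means only.

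The fitted differences in thyroid tissue are given for size only, since the members were chosen from them. Against the controls, the log2 fold change (log2FC) in cold lambs was -5.22 ± 0.85 (SE) for DNAH1, -4.68 ± 0.80 for DNASE1, -4.34 ± 0.82 for SLC14A2 and 6.07 ± 1.70 for GLYAT. In AT lambs it was -4.64 ± 0.84 for DNAH1, -4.48 ± 0.80 for DNASE1, -4.75 ± 0.83 for SLC14A2 and 5.82 ± 1.70 for GLYAT. Both comparisons use the same controls. The fitted value of GLYAT depends on the count added to a group near 0 and is no bound. By |log2FC| ≥ 1 and an adjusted p under 0.05 of edgeR's quasi-likelihood test, all 4 genes were called in both comparisons. Their choice from these differences made this outcome near certain, so it is no result. Of the 16122 tested genes, 8.04% were called for cold and 7.80% for AT. Among called genes with a symbol whose treated lambs and both used controls did not overlap, GLYAT came after CYP1A1 at 8.90 and MX2 at 6.14 on the higher side in cold lambs, just ahead of CXCL10 at 6.04. On the lower side in cold lambs, the 3 other members followed KLHL40, a skeletal muscle gene, at -5.24, and HBEGF came after them at -4.23. In AT lambs, GLYAT stood between CYP1A1 at 6.36 and PCLAF at 5.20. SLC14A2, DNAH1 and DNASE1 were the lowest of 661 genes there, with KCNQ3 next at -3.49.

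The choice of controls moved these values more than the scaling did. With Control 2 in place of Control 3, the log2FC of DNASE1 was -1.20 in cold and -0.999 in AT lambs, while SLC14A2 was at -3.61 and -4.01. Against Control 1 alone, DNAH1 was at -2.88 in cold and -2.30 in AT lambs. TMM scaling, which sets most genes as unchanged, gave -4.82 for DNAH1, -4.25 for DNASE1, -4.09 for SLC14A2 and 6.34 for GLYAT in cold lambs. The median log2FC of all genes tested was -0.284 in both comparisons with the reference genes and 0.027 (cold) and 0.041 (AT) with TMM. The members' values exceed this shift many times over.

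**Figure D2:**
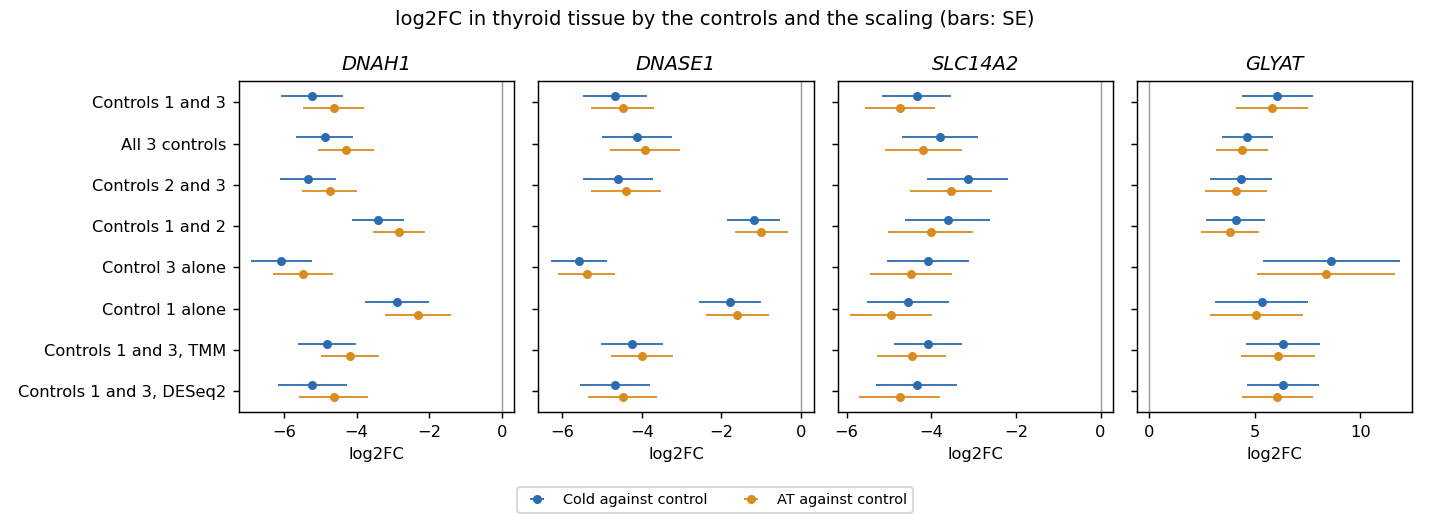
Fitted log2FC in thyroid tissue (x axis) of each gene for cold and AT lambs against the controls named on the y axis, by edgeR unless DESeq2 is named, with bars of 1 SE. DNASE1 moved from -4.68 with Controls 1 and 3 to -1.20 with Controls 1 and 2 in cold lambs, whereas TMM scaling and DESeq2 with the same controls left the 4 genes near their first value.

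Genes beside the members on the chromosome were read in the same libraries. BAP1, a deubiquitinase gene 558 bases from DNAH1 on the opposite strand, had 2544, 2695 and 5185 normalized counts in Controls 1, 2 and 3 and between 1540 and 2050 in the treated lambs. Its log2FC was -1.07 ± 0.20 (SE) in cold lambs (edgeR adjusted p = 0.00401) and -1.07 in AT lambs (edgeR adjusted p = 0.00336). GLYCTK, a glycerate kinase gene on the other side of DNAH1, had 110.8, 194.5 and 431.2 in the controls and 102 to 238 in the treated lambs, and was not called. The difference of DNAH1 was therefore not shared in size by its neighbours, although Control 3 was the highest library for both.

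SLX4, a scaffold gene of DNA repair nucleases that lies 28471 bases from DNASE1, had 1214 normalized counts in Control 1, 215.1 in Control 2 and 5736 in Control 3. The treated lambs ranged from 521.5 to 1356. The order of the 3 controls was that of DNASE1, with Control 2 below every treated lamb here. SLX4 was called lower in cold (log2FC -1.96, edgeR adjusted p = 0.00732) and AT lambs (-1.76, edgeR adjusted p = 0.0105). TRAP1, which shares exon bases with DNASE1, had 1986, 2704 and 2830 in the controls and 1017 to 2036 in the treated lambs, at log2FC of -0.94 and -0.76, and was not called. SLC14A1, the related urea transporter 41209 bases from SLC14A2, was too low to be tested, with 32.6, 79.1 and 7.94 normalized counts in the controls and 1.90 to 44.6 in treated lambs. Control 2 was thus the highest control for SLC14A1 and the lowest for SLC14A2.

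The remaining neighbours have no symbol and held few reads in thyroid tissue. LOC114110467, 19032 bases from SLC14A2 on its other side, and LOC114110480, which lies within the span of SLC14A2 without sharing exon bases, had at most 18.5 and 9.12 normalized counts in any library and were not tested. LOC105610529 and LOC105604496, which also lie within that span, were tested and not called, at log2FC of 0.63 and -0.65 in cold lambs. The highest value of these 3 genes in any thyroid library was 64.8, in Control 2. Beside GLYAT, LOC101108419 had at most 2.83 normalized counts. LOC101108949, 5784 bases from GLYAT, had 47.8, 20.6 and 6.61 in Controls 1, 2 and 3, between 0.983 and 173 in cold lambs and between 0 and 130 in AT lambs, and had too few libraries with 10 reads to be tested. Its controls lay inside the range of the treated lambs, unlike those of GLYAT.

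Among the other genes of the axonemal dynein list, 11 were tested in thyroid tissue and 2 were called lower in cold lambs against controls, with none higher. Of all genes tested, 6.15% were called lower and 1.89% higher in cold lambs, and 5.98% and 1.82% in AT lambs. The dynein genes called were DNAH17 (log2FC -1.10, edgeR adjusted p = 0.00428) and DNAH9 (-1.60, edgeR adjusted p = 0.0388), both outer-arm heavy chains. In AT lambs DNAH17 (-1.27, edgeR adjusted p = 0.00179) and DNAH9 (-1.70, edgeR adjusted p = 0.0282) were called again, against the same controls. The medians over the list were -0.357 for cold and -0.318 for AT, close to the medians of all genes tested. DNAH17 was the best measured, with 1306, 1977 and 1728 normalized counts in Controls 1, 2 and 3 and 482 to 880 in the treated lambs, which lay below all 3 controls. DNAH9 had 27.1, 9.49 and 78.0 in the controls against 8.09 to 33.3 in treated lambs, which overlapped. Neither gene was called with TMM scaling, where DNAH17 was at -0.78 and DNAH9 at -1.25 in cold lambs. Of the inner-arm chains nearest in kind to DNAH1, DNAH3 (0.46 ± 0.30 (SE) in cold lambs), DNAH7 (-0.91 ± 0.52) and DNAH12 (1.204 ± 1.409) were not called, nor was the outer-arm chain DNAH11 (-0.54 ± 0.32).

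The motile cilium list held 27 tested genes in thyroid tissue. Of these, 1 was called higher and 1 lower in cold lambs, and 1 higher and 2 lower in AT lambs. Of all genes tested, 8.04% were called for cold and 7.80% for AT, so these few calls do not set the list apart. In cold lambs CFAP70 was called higher (log2FC 1.34) and LRRC6, a dynein assembly factor, lower (-2.75), and in AT lambs SPAG1, another assembly factor, was lower as well (-1.13, with CFAP70 at 1.64 and LRRC6 at -2.42). The medians over this list were -0.086 (cold) and -0.081 (AT). Scaled by TMM, CFAP70 kept its call in both comparisons, while LRRC6 in AT lambs (-2.002) and SPAG1 (-0.80) were not called.

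Of 16 other DNA-degrading enzymes tested, none was called lower in thyroid tissue, where 6.15% (cold) and 5.98% (AT) of all genes tested were. TREX2, an exonuclease gene, was called higher in cold (log2FC 1.02) and AT lambs (1.27), and PLD4, a lysosomal exonuclease gene, in cold lambs (1.66). With all 3 controls TREX2 was at -0.05 in cold and 0.21 in AT lambs, and neither gene was called. The enzymes closest to DNASE1 did not pass the test, and in cold lambs their log2FC was -0.84 ± 0.49 (SE) for DNASE1L1, -0.14 ± 0.30 for DNASE1L2, -0.26 ± 0.45 for DNASE1L3 and -0.27 ± 0.22 for the lysosomal DNASE2. DNASE1L1 had 2471, 2828 and 3024 normalized counts in the controls and 1273 to 6154 in treated lambs. Its 3 controls lay within a narrow range where those of DNASE1 did not.

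Of 7 other genes of urea transport and the urea cycle, 3 were called lower in cold lambs and none higher, where 6.15% of all genes tested were called lower, with a list median of -1.01. They were ASS1, which joins citrulline and aspartate (log2FC -1.21), and the mitochondrial carriers SLC25A15 for ornithine (-1.22) and SLC25A13 for aspartate and glutamate (-1.47). In AT lambs SLC25A15 (-1.25) and SLC25A13 (-1.45) were called, with a list median of -0.796. Under TMM scaling SLC25A13 kept its call (-1.15 and -1.10), and SLC25A15 (-0.92 and -0.94) and ASS1 in cold lambs (-0.91) did not.

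Of 11 other genes of glycine conjugation and glycine metabolism, ACSM3, a medium-chain acyl-CoA synthetase, was called higher in cold (log2FC 1.02) and AT lambs (1.15). GNMT, a glycine methyltransferase, was called lower (-1.33 and -1.60), at -0.96 without a call in cold lambs under TMM scaling. The list medians were -0.190 and -0.099. GLYATL2 and GLYATL3, relatives of GLYAT, had at most 1.004 and 0.952 normalized counts in any thyroid library and were not tested. Of the 72 other genes of the pathway lists tested in thyroid tissue, 11 were called in cold lambs, or 15.3% against 8.04% of all genes tested. In AT lambs 10 were called, or 13.9% against 7.80%. With TMM scaling, those called lower in cold lambs went from 7 to 2 and those called higher from 4 to 5.

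In BAT, which did not enter the choice of the genes, only DNASE1 and GLYAT had enough reads to be tested. GLYAT reached this only through the treated lambs. Neither gene was called in cold or AT lambs against controls, where 1.21% and 6.07% of the 14905 tested genes were called. DNAH1 had between 0 and 29 reads and SLC14A2 between 0 and 9 reads in any BAT library. SLC14A2 had no read in Control 1 or Control 3 and 2 reads in Control 2, and no fold change is given. The high control levels of DNAH1 and SLC14A2 were thus found in thyroid tissue and not in BAT of the same lambs.

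DNASE1 had 292.8 normalized counts in Control 1, 55.9 in Control 2 and 230.9 in Control 3 in BAT. The cold lambs ranged from 114.8 to 226.2 with a median of 138.7, and the AT lambs from 119.9 to 275.3 with a median of 213.1. All 6 cold lambs lay below Control 1 and Control 3, and all 12 treated lambs lay above Control 2. The log2FC was -0.77 ± 0.29 (SE) in cold lambs, with a 95% interval from -1.39 to -0.157 (edgeR adjusted p = 0.168), and -0.41 ± 0.29 in AT lambs (edgeR adjusted p = 0.401). With Control 2 in place of Control 1 the sign turned, to 0.13 in cold and 0.52 in AT lambs. Control 3, with 44.1-fold the level of Control 2 in thyroid tissue, had no such excess in BAT.

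GLYAT had no read in Control 1 or Control 3 of BAT, and 8 reads (17.2 normalized counts) in Control 2. The cold lambs had 5.20 at the lowest, in Cold 3, 228 at the median and 477 at the highest, in Cold 5. The AT lambs had 22.3, 116 and 441. All 12 treated lambs were above Control 1 and Control 3, whereas 2 cold lambs lay below Control 2. For Control 1 and Control 3, the floor of 3 reads per library comes to at most 4.01 normalized counts. The mean of 203 ± 177 (SD, n = 6) in cold lambs was 50.7-fold and that of 167 ± 164 in AT lambs 41.7-fold this floor. These folds bound the difference from Control 1 and Control 3 by counting error alone. Against Control 2 the means were only 11.8-fold (cold) and 9.71-fold (AT) higher. The edgeR test did not pass (adjusted p = 0.101 for cold and 0.0614 for AT), while DESeq2's Wald test with the same controls called both (adjusted p = 0.000106 and 8.19e-05). With all 3 controls edgeR called GLYAT in AT lambs (log2FC 5.43, adjusted p = 0.0453). No BAT control held 10 reads of GLYAT, so it passed the filter for testing only through the treated lambs, where it was high. Its p-values in BAT are therefore a description and no support for a difference.

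**Figure D3:**
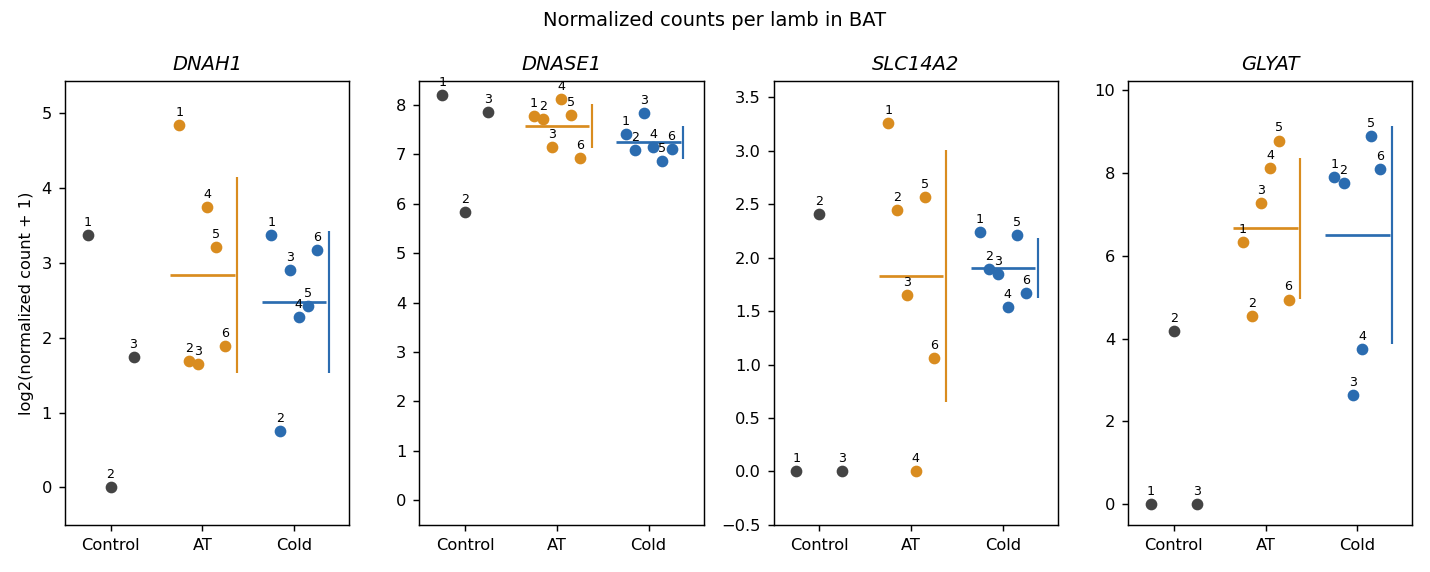
BAT level of each gene per lamb as log2(normalized count + 1), with the control, AT and cold lambs on the x axis and the replicate number above each point. Horizontal lines are the means of 6 lambs and vertical bars the SD on this log2 scale. GLYAT lies at 0 in Controls 1 and 3 and between 5.20 and 477 normalized counts in treated lambs, DNASE1 of Control 2 lies below all treated lambs, and DNAH1 and SLC14A2 had at most 29 and 9 reads.

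Of the 61 other genes of the 5 pathway lists tested in BAT, none was called in cold lambs, where 1.21% of all genes tested were called. In AT lambs 4 were called, or 6.56% against 6.07% of all genes tested, so neither share stood apart from the background. DNAH2, an inner-arm dynein chain, was called lower (log2FC -2.29) and ASS1 lower (-1.18), and CFAP54 (2.06) and GATM, which makes guanidinoacetate from glycine, higher (2.40). With all 3 controls DNAH2 (-1.64) and ASS1 (-0.95) were not called. DNAH2 had 195.2 normalized counts in Control 1, 2.15 in Control 2 and 253.5 in Control 3, against 19.5 to 107.8 in treated lambs.

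Cold against AT lambs of the same age showed no called difference for any of the 4 genes. The treated thyroid libraries had entered the choice of the genes, but this contrast had not. In thyroid tissue 0% of the 16122 tested genes were called by edgeR (870 had an unadjusted p under 0.05, and DESeq2 called 2), and in BAT 0.275% of the 14905 were called. The thyroid log2FC of cold against AT was -0.58 ± 0.67 (SE) for DNAH1, with a 95% interval from -2.03 to 0.86 (edgeR adjusted p = 0.94). For DNASE1 it was -0.19, with an interval from -1.52 to 1.13 (edgeR adjusted p = 0.984). SLC14A2 was at 0.40, with an interval from -1.001 to 1.81, and GLYAT at 0.26, with an interval from -1.16 to 1.67 (edgeR adjusted p = 0.952 and 0.977). These intervals leave room for more than a doubling in either direction for each of the 4 genes except DNAH1, whose interval ends at 0.86 on the higher side. In BAT, DNASE1 was at -0.36, with an interval from -0.82 to 0.09 (edgeR adjusted p = 0.499), and GLYAT at 0.31, with an interval from -1.58 to 2.19 (edgeR adjusted p = 0.898). The BAT interval of DNASE1 was the narrowest of the 6.

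**Figure D4:**
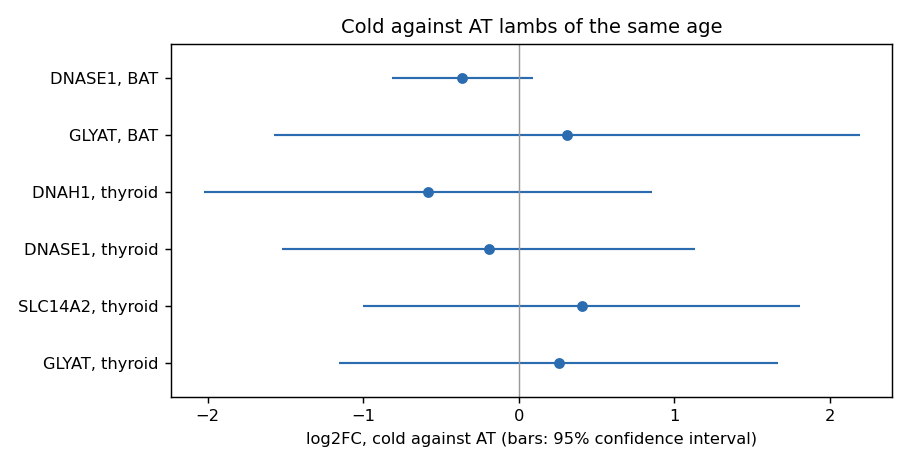
Fitted log2FC of cold against AT lambs of the same age (x axis) for each gene and tissue with enough reads, by edgeR, with bars of the 95% confidence interval. All 6 intervals include 0, and that of DNASE1 in BAT, from -0.82 to 0.09, was the narrowest.

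Within the 12 treated lambs, 21 relations were computed on log2(normalized count + 1), after the levels of the genes were known. They set members against each other, their neighbours and marker sums, and GLYAT and DNASE1 in BAT against the same gene in thyroid tissue. The 12 lambs join both treatments, and values within each are given. GLYAT followed the summed level of 10 adipocyte markers in the thyroid libraries. Pearson's r was 0.85 (permutation p = 0.0008, adjusted over the 21 relations 0.0104) and Spearman's rho 0.85 (permutation p = 0.00085, adjusted 0.0117). Without the 2 lambs farthest from the median of GLYAT, Cold 1 and Cold 3, r was 0.80. Within the cold lambs r was 0.92 (exact permutation p = 0.0111) and within the AT lambs 0.87 (exact permutation p = 0.0389). The marker sum ranged from 2160 normalized counts in AT 2 to 14352 in AT 6, and the control sums from 4088 to 13191, so the controls, with 0 to 3 reads of GLYAT, lay inside the treated range of adipocyte markers. Control 2 had the highest control sum. Of the 10 markers, 9 were tested against the controls, and none was called in cold lambs and UCP1 was called lower in AT lambs (log2FC -3.26, edgeR adjusted p = 0.0445), with no marker at 0 in all 15 libraries. In BAT, where adipocyte markers were more abundant, r of GLYAT with their sum was 0.08 (permutation adjusted p = 0.916). Whether adipocytes in the thyroid samples carried the GLYAT reads was not tested.

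DNASE1 followed its neighbour SLX4 over the 12 treated lambs, at r of 0.83 (permutation p = 0.00099, adjusted 0.0104) and rho of 0.84 (permutation p = 0.00111, adjusted 0.0117). Without Cold 5 and AT 3 r was 0.75, and it was 0.87 within the cold lambs (exact permutation p = 0.0278) and 0.84 within the AT lambs (exact permutation p = 0.0417). DNAH1 and DNASE1 had r of 0.65 (permutation p = 0.0165, adjusted 0.115) and rho of 0.63 (permutation adjusted p = 0.147). It was 0.35 without AT 6 and Cold 5, so that it rests on these lambs, and it was 0.85 within the cold lambs (exact permutation p = 0.0111) and 0.54 within the AT lambs (exact permutation p = 0.264). The level of GLYAT in BAT and in thyroid tissue of the same lamb had r of 0.61 (permutation p = 0.0374, adjusted 0.157) and rho of 0.62 (permutation adjusted p = 0.147), and 0.28 without Cold 3 and Cold 4. It was 0.81 within the cold lambs (exact permutation p = 0.0917) and 0.19 within the AT lambs (exact permutation p = 0.703). For DNASE1 in both tissues r was 0.36 (permutation adjusted p = 0.584), and 0.75 without AT 4 and Cold 3. Within the cold lambs r of DNASE1 was -0.05 and within the AT lambs 0.63 (exact permutation p = 0.889 and 0.203). DNAH1 with GLYCTK passed for rho (0.76, permutation adjusted p = 0.0455) and not for r (0.62, permutation adjusted p = 0.156), with r of 0.37 within the cold and 0.77 within the AT lambs (exact permutation p = 0.497 and 0.0306). The other relations had adjusted permutation p-values of at least 0.368 for r.

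**Figure D5:**
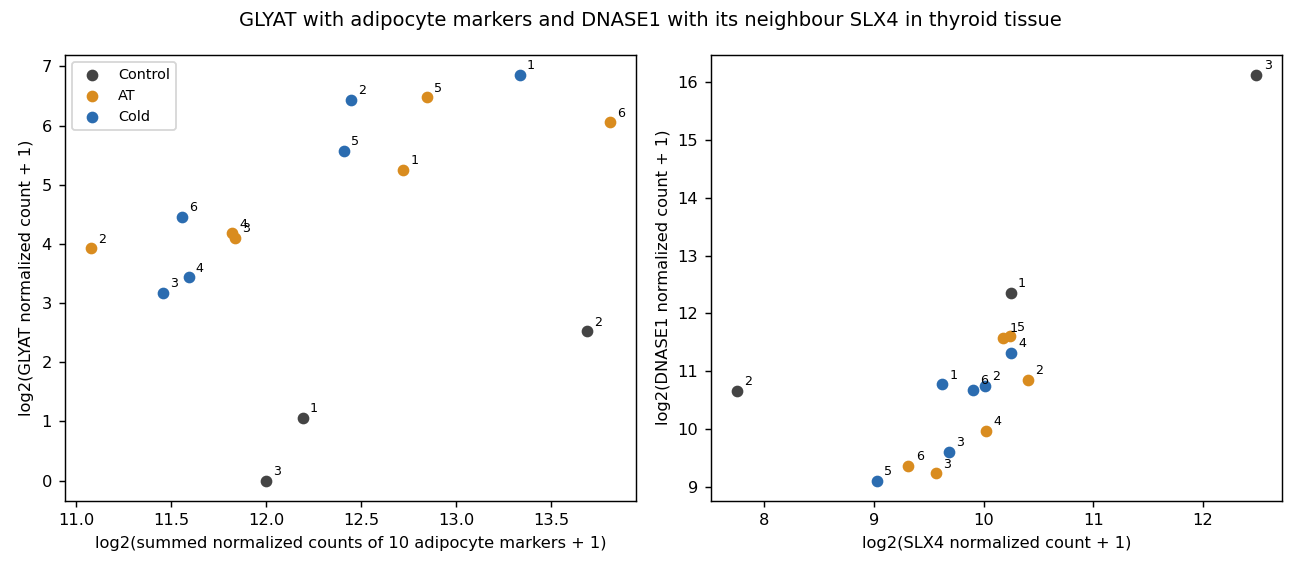
GLYAT against the summed adipocyte markers (left) and DNASE1 against SLX4 (right) in the 15 thyroid libraries, all as log2(normalized count + 1), with the replicate number beside each point. GLYAT followed the marker sum over the 12 treated lambs (r = 0.85) while the 3 controls lie below them, and DNASE1 followed SLX4 (r = 0.83) with Control 3 far to the upper right and Control 2 to the left of all treated lambs.

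Some genes followed the members over the 15 thyroid libraries on the same log2 scale, among 13035 genes with a symbol, and the values are a description in which the libraries and their scaling are shared. DNAH1 was most like TMEM222 (r = 0.97 over 15 libraries, 0.92 over the 12 treated), ABHD11 (0.96 and 0.87) and SIL1 (0.96 and 0.88). DNASE1 was most like ZFPL1 (0.95 and 0.73), MAN1B1 (0.94 and 0.74) and FICD (0.94 and 0.73). SLC14A2 was most like MFSD11 (0.88 and 0.67), ANOS1 (0.88 and 0.74) and LYSMD3 (0.85 and 0.53). GLYAT was most like G0S2 (0.86 and 0.78), C2 (0.85 and 0.58) and PCK1 (0.85 and 0.84). G0S2 encodes an inhibitor of the lipase ATGL and PCK1 the enzyme of glyceroneogenesis, and both are abundant in fat. For SLC14A2, r was between 0.49 and 0.62 without Control 1 and Control 3, so its likeness rests in part on those libraries.

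Markers of the thyroid follicle and of the kidney, the organ known for SLC14A2, GLYAT and DNASE1, were read beside the members. The thyroid libraries held follicular cell markers in abundance, with summed levels between 1354014 and 2770632 in treated lambs and up to 5927216 in Control 3. SLC5A5, the iodide transporter, was called lower in cold (log2FC -2.55) and AT lambs (-2.46). SLC5A5 had 11750, 2670 and 65357 normalized counts in Controls 1, 2 and 3, the order of DNASE1, and 1520 to 17173 in treated lambs. It was not called under TMM scaling (-2.17 and -2.001).

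Of 12 kidney markers, 11 were in the table, and UMOD and SLC22A8, which define the thick limb and the proximal tubule, were at 0 in all 15 thyroid libraries. The summed level of the list was 37.96 to 511 in the controls, highest in Control 3, and 65.6 to 145 in treated lambs. KCNJ1, a potassium channel of the thick limb, was the only kidney marker with enough reads to be tested. It was called lower (log2FC -2.03 and -2.26), with 107.5, 3.16 and 488.1 normalized counts in the controls and 45.9 to 114.8 in treated lambs. With all 3 controls KCNJ1 was at -1.45 and -1.67 and not called. Hepatocyte markers, the other source known for GLYAT, summed to 208 to 1107 in treated lambs and 350 to 430 in the controls, which overlapped. None of the 4 hepatocyte markers tested was called. The part of these cells in the levels of the 4 genes was not tested.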

How the data were processed

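The authors sequenced mRNA captured on oligo(dT) beads, trimmed the read pairs with Trimmomatic 0.39, aligned them with STAR 2.7.7a to Oar_rambouillet_v1.0 and counted reads per gene with featureCounts (Subread 2.0.0), counting reads that map to several places, so near-identical copies share reads. Whether the strand was used is not given in the sources used here. They deposited whole-number counts per gene, without normalization. A gene was tested here if 10 or more libraries of the tissue held 10 or more of its reads. The test was edgeR's quasi-likelihood test in robust mode (edgeR 4.0.16, R 4.3.3), 2-sided, on 14 libraries with all 3 groups in one fit and Benjamini-Hochberg adjustment over all genes tested. Size factors came from ACTB, RPL19 and HUWE1 by DESeq2 1.42.0. Calls required |log2FC| ≥ 1 together with an adjusted p below 0.05. Control 2 was identified as the control left out by the study because the study's normalized counts are proportional to the other controls. Replicate numbers follow accession order. Lambs are separate animals, and p-values measure the spread between them. Counting intervals cover counting error only.

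The members and gene lists were chosen with earlier results of these data known. The genes named are the 4 members, called genes of the pathway lists, tested genes of a member's subfamily, the nearest genes on each side, the 3 genes with a symbol most correlated with each member over the 15 thyroid libraries, markers that moved with a member, and the reference genes. Genes too low to be tested are named as such. Positions and exons are those in the count table, and chromosome numbers were assigned through gene symbols of a later assembly, ARS-UI_Ramb_v3.0, of which no coordinate is used. Alternatives were TMM, size factors from the median of ratios, the Wald test of DESeq2, other controls, other filters, each lamb left out, a fit of only the compared groups, and RNA integrity as a covariate. The scripts were tested on simulated data.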

Additional observations from a re-analysis of the deposited data

Results flagged for a closer look

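In the thyroid tissue of AT lambs, DNAH1 of AT 6 lay far below the other 5 lambs, at 9.75 normalized counts, in a test of the gap to the nearest lamb against the range of the group. This was met by 1 of 16 groups of 6 lambs tested, and chance gives about 1 in 20.

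SLC14A2 lay on opposite sides of Control 1 and Control 3 in the tissues of cold lambs. In BAT all 6 cold lambs (mean 2.79 normalized counts) lay above Control 1 and Control 3, which had no read, and in thyroid tissue all 6 (mean 77.4) lay below these controls. Control 2 showed neither side, since in BAT it lay above all 6 cold lambs, at 4.30, and in thyroid tissue, at 58.5, 3 cold lambs lay above it and 3 below. The BAT values are at or under the limit that a count of 0 allows, so no difference is shown in BAT, and the difference between the tissues was not tested.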

How the results depend on the processing

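All 4 genes were called in thyroid tissue against Control 1 and Control 3, in cold and in AT lambs. With Control 2 in place of Control 3, 2 genes were called in each comparison, DNAH1 and SLC14A2. Leaving out one lamb at a time gave between 0 and 4 called genes for cold and between 1 and 4 for AT, the lowest without Control 3, which leaves 1 control whose spread is assumed to be like that of the other groups. Every one of these fits kept the direction of the 4 genes. The genes were chosen by their change from the thyroid controls, so these calls and directions are a description and no support. Without Control 3, the edgeR adjusted p was 0.171 and 0.264 for DNAH1, 0.335 and 0.374 for DNASE1 and 0.304 and 0.311 for GLYAT, and it was 0.0577 for SLC14A2 in cold lambs. Of the pathway genes called in thyroid tissue, SLC25A15 alone was also called without Control 3. GLYAT was also not called with Control 2 in place of Control 1 (edgeR adjusted p = 0.0559 and 0.0723) or without Control 1 (0.0737 and 0.081). With TMM scaling 788 thyroid genes were called for cold and 741 for AT, against 1296 and 1258 with the reference genes. Without Control 3 and with the reference genes 90 and 94 were called, and without Control 1 1938 and 2102. The share of called genes that were higher was 59.0% and 62.3% with TMM scaling, where the reference genes gave 305 of 1296 and 294 of 1258 genes.

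In BAT, no member was called by edgeR, and DESeq2 called 1, GLYAT, in each comparison, as did all 3 controls for AT, with 1. GLYAT was open to these tests only through its reads in the treated lambs. For DNASE1 in BAT the sign turned with Control 2 in place of Control 1 (log2FC 0.13 in cold and 0.52 in AT lambs) and, in AT lambs, with Control 2 in place of Control 3 (0.26) and with all 3 controls (0.10). For cold against AT the sign turned with some single lambs left out, and none of these values was called. The log2FC of GLYAT in BAT ranged from -0.15 without Cold 5 to 0.89 without AT 5. In thyroid tissue GLYAT ranged from -0.23 without Cold 1 to 0.64 without AT 5, SLC14A2 from -0.13 without Cold 2 to 0.70 without AT 3, and DNASE1 from -0.42 without Cold 4 to 0.0505 without AT 5 (0.0381 without AT 1). Of the pathway lists, thyroid genes called lower went from 7 to 2 in both comparisons with TMM scaling, and those called higher for cold from 4 to 2 with all 3 controls. In BAT, genes called higher for cold went from 0 to 1 under TMM scaling and to 1 with all 3 controls. For AT they went from 2 to 4 higher and from 2 to 0 lower with all 3 controls. The cause of these changes was not tested. No paired analysis was possible because the comparisons are between treatment groups within a tissue, each lamb is in one group only, and the replicate numbers pair no lambs across groups. The levels in both tissues of a lamb were correlated only for GLYAT and DNASE1, over the treated lambs. Reads limit DNAH1 and SLC14A2 in BAT and the controls of GLYAT.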
